A study of Rattus norvegicus with 24 samples.

Results

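The comparison was between whole blood of rats injected with lipopolysaccharide (LPS) and whole blood of rats that were not, taken over all 3 diets at once. The 12 arrays whose titles name an LPS injection were set against the 12 whose titles do not, which used 24 of the 24 arrays of the series. Each array held the blood RNA of a single male Sprague-Dawley rat, 8 weeks old when obtained and kept for 6 weeks on its diet. The groups, with 4 rats in each, were C-G0 and LPS-G0 on the semi-synthetic control diet (G0), C-G1 and LPS-G1 on G0 plus oat beta-glucan of high molecular weight (the G1 diet), and C-G2 and LPS-G2 on G0 plus the low-molecular-weight form (the G2 diet). LPS rats received repeated tail-vein injections of E. coli LPS at 10 mg per kg of body weight to induce enteritis, and C rats received sodium chloride solution by the same route. Blood was drawn by cardiac puncture at the end of the feeding period after a fast. The interval between the last injection and blood sampling is not given in the sources used here. Replicates 3 and 4 of LPS-G0 carry conflicting labels, since their titles name the injection and another field calls them control, and they were used as titled.

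LPS is the outer-membrane glycolipid of Gram-negative bacteria. It is handed by Lbp and Cd14 to the Tlr4 and Ly96 receptor complex on monocytes and neutrophils, which acts through Myd88 and the Irak kinases to release NF-kB and switch on cytokine and chemokine genes. Type I interferon and its target genes follow through a separate branch. Circulating neutrophils, monocytes, T cells, B cells, natural killer cells, platelets and young red cells all contribute RNA to whole blood, so the genes were described by pathway and by cell type. In such bulk samples, fewer cells of a type and less RNA per cell cannot be told apart.

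The probes with the smallest p-values belonged to Fam111a, a trypsin-like peptidase that acts at DNA replication forks, and Spink2, a Kazal-type inhibitor of serine proteases known from the testis. Their probe sequences are shown because both Fam111a probes read nearly the same stretch of the transcript and are not independent oligonucleotides. The array design places the brighter Fam111a probe at chr1:215596354-215596413 of rn4, plus strand, the dimmer one at chr1:215596377-215596436, and the Spink2 probe at chr14:33251631-33251690, plus strand. The 2 Fam111a probes of 60 bases shared 37 bases, and each had 23 of its own. Runs of 30 bases follow, 5′ to 3′, with capitals for bases read by both Fam111a probes. The runs start at chr1:215596362-215596391, chr1:215596377-215596406 and chr14:33251631-33251660. Exon and UTR annotation of that build was not used here.
Fam111a, brighter probe: aagaaagaagccaacCACGTTCCTTGAAAC
Fam111a, dimmer probe: CACGTTCCTTGAAACTTAAACCAATTTCAA
Spink2: tacgacccaggcaacttttgcctccttaat

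All values are log2 ratios of the rat's own RNA over a common reference of pooled rat RNA on the same array. The labels put the rat's RNA in Cy3 and the study's methods put it in Cy5. The labels were followed, so every signed value here runs opposite to the direction that the methods' dye assignment would give. Arrays of a group varied more in the Cy3 signal (median SD 0.352) than in the Cy5 signal (0.233), over the 7074 probes above background in both channels on every array. In Cy3, an array without LPS read 7786 to 15385 probes well above background and an array with LPS 10276 to 13573, and none was saturated. Blood markers were read on every array, among them the haemoglobin gene Hbb, the neutrophil gene S100a8 and the B cell receptor subunit Cd79b. On the first principal component, which carried 38.2% of the variance, arrays without LPS ran from -52.8 to 71.2 and enclosed those with LPS, which ran from -40.5 to 26.6. C-G0 replicate 1 and C-G1 replicate 2 stood farthest from the others in many gene groups, and values without them are given where they mattered.

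No probe passed the threshold for LPS. There were 10708 probes tested, and those matched to RefSeq under a symbol other than a placeholder stood for 7071 gene symbols. Of the 10708, 0 had an adjusted p under 0.05 (0%), by limma with diet as a factor and Benjamini-Hochberg adjustment. An unadjusted p under 0.05 was found for 1072. Of these 1072 probes, 842 were higher with LPS (7.86% of those tested) and 230 were lower (2.15%). Over all probes tested, 53.0% had a higher mean with LPS. The split did not hold within slides, with 85 higher and 153 lower within slide 1, 1085 and 338 within slide 2, and 167 and 244 within slide 3, so higher probes were in excess within slide 2 and lower ones within the other slides. With the quantile-normalized Cy3 signal alone, which changed both the channel and the normalization, it was 197 higher and 188 lower, and with arrays weighted by their quality 726 and 431. Centring each array on its median (733 and 268) or normexp with loess (835 and 295) gave more higher than lower. Arrays of a group differed by a median SD of 0.318, and the LPS difference had a median standard error of 0.127. For 10560 probes (98.6%), the 95% interval of the difference lay within 2-fold in both directions. The 4 probes that differed by 2-fold or more were both Fam111a probes, Spink2 and the globin gene Hba-a3, which was lower by a variable amount (-1.10, SE 1.12). For 0 probes did the 12 LPS arrays lie wholly above or below the 12 others.

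Fam111a came closest to the threshold. Its brighter probe had log2 ratios without LPS of -1.29 at the lowest, -0.20 at the median and 0.25 at the highest, and with LPS of -0.25, 0.79 and 1.84. The mean was -0.35 ± 0.48 (SD, n = 12) without and 0.73 ± 0.68 (SD, n = 12) with LPS. The arms overlapped between -0.25 and 0.25, and the LPS difference was 1.08 (SE 0.187, 95% interval 0.70 to 1.47), a ratio of 2.12-fold. Its adjusted p by limma was 0.0585, the smallest of all probes. An exact two-sided permutation of the LPS label within each diet, over 343000 arrangements, gave p = 9.33e-05, where the smallest possible was 5.83e-06. Since this probe was chosen for the smallest p of all, the permutation p describes it and is no further evidence.

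The separation of Fam111a was wide on the G0 diet, narrow on G1 and absent on G2. On the control diet the log2 ratios were -0.27, -0.15, 0.15 and -0.24 in C-G0 and 1.84, 1.77, 1.30 and 1.09 in LPS-G0. On the high-molecular-weight beta-glucan diet they were -1.12, -0.15, -1.29 and -0.16 in C-G1 and 0.89, 0.80, 0.16 and 0.15 in LPS-G1. On the low-molecular-weight beta-glucan diet they were 0.25, -0.38, 0.02 and -0.81 in C-G2 and 0.30, 0.78, -0.01 and -0.25 in LPS-G2. Every LPS array was thus above every C array on G0 and on G1, while the groups overlapped on G2. The LPS differences were 1.63, 1.18 and 0.43 on G0, G1 and G2 (SE 0.287 each). The test for unequal differences, with an unadjusted limma interaction p of 0.0241, did not pass after adjustment over all probes.

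The brighter Fam111a probe was still dim in most rats without LPS. It was well above background on 4 of 12 arrays without LPS and on 11 of 12 with LPS, with 1 of 4 in C-G0 and in C-G1. It passed the filter on dim probes only through LPS-G0 and LPS-G1, where it was high. A difference on those diets was thus favoured by the filter itself. With another background correction, normexp followed by loess, the difference was 0.45 with an adjusted p of 0.111. Within the 3 slides, each of which held all 6 groups, it was 1.53, 1.18 and 0.54. With the Cy3 signal alone it was 1.06, and with the Cy5 signal of the reference alone it was -0.04. The adjusted p fell below 0.05 under 9 of 41 other settings, 7 of which each left out a single array, and went as low as 0.0140 without C-G2 replicate 1. The limma adjusted p was 0.276 without the 2 arrays of conflicting labels and 0.209 with replicate number as a block. It was 0.427 without the filter on dim probes and 0.7135 with the Cy3 signal alone.

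The dimmer Fam111a probe gave a difference of 1.54 (SE 0.306, 95% interval 0.91 to 2.17), or 2.90-fold, with an adjusted p of 0.130. Its log2 ratios without LPS were -1.68 at the lowest, -0.65 at the median and 0.74 at the highest, and with LPS -1.09, 1.12 and 2.17. It was well above background on 1 of 12 arrays without LPS and on 9 of 12 with LPS. None of the C-G1 and C-G2 arrays read it above background, so no fold within those diets is given. Normexp with loess brought the difference to 0.58.

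Spink2 was the other gene with a 2-fold difference and a small p. Its log2 ratios were -1.22, -0.70 and 0.45 at the lowest, median and highest without LPS and -0.48, 0.34 and 1.25 with LPS. The LPS difference was 1.01 (SE 0.200, 95% interval 0.59 to 1.42), or 2.01-fold, with an adjusted p of 0.130 by limma.

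On the control diet Spink2 stood at -1.08, -0.81, -0.82 and -0.59 in C-G0 and at 0.26, 0.69, 0.65 and -0.36 in LPS-G0. On G1 it stood at -1.09, -0.69, -0.71 and -1.22 in C-G1 and at 0.80, 0.19, 1.25 and 0.93 in LPS-G1. On G2 it stood at 0.24, -0.54, 0.45 and -0.66 in C-G2 and at -0.05, 0.23, 0.42 and -0.48 in LPS-G2. As with Fam111a, the groups did not overlap on G0 and G1 and did on G2. Groups without overlap, higher with LPS, were found for 3.69% of all probes on G0, 1.33% on G1 and 0.57% on G2. The differences were 1.14, 1.72 and 0.16 (SE 0.275 each), and the test for unequal differences, with an unadjusted limma interaction p of 0.00208, did not pass after adjustment. The G1 value was the single within-diet difference that passed the adjusted threshold over the 3 diets (limma adjusted p 0.0256), against a background of 1 probe in 10708 (0.00934%) on G1 and 0 probes (0%) on G0 and on G2. It lost that call with slide or replicate number as a block, without the filter on dim probes, or without any 1 of 7 of the 8 G1 arrays. Spink2 was above background on 4 of 12 arrays without and 9 of 12 with LPS. It passed the filter on dim probes only through LPS-G1, the group where it was highest, so a difference on G1 was favoured by the filter itself. With normexp and loess the difference over all diets was 0.26. A second Spink2 probe was above background on 0 arrays and was not tested.

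**Figure D1:**
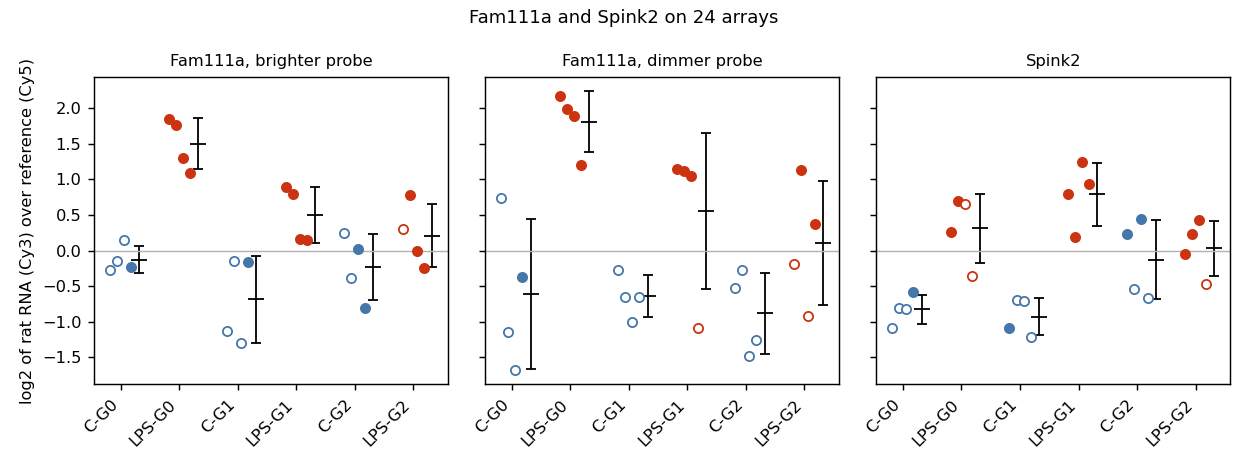
Log2 ratios of the rat's RNA over the common reference (y axis) for both Fam111a probes and for Spink2, with 1 point per array, the 6 groups along the x axis and bars for each group mean and SD (n = 4); open points mark arrays on which the probe was not well above background. LPS points of Spink2 and of the brighter Fam111a probe lie above all C points on the G0 and G1 diets and among them on G2, and most C points are open.

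Other genes named by their small p were 9 higher and 12 lower with LPS, and each had an adjusted p of 0.486. Among the higher ones, Lpal2 differed by 0.72 (SE 0.202) and Trim58, a ubiquitin ligase of late red cell precursors, by 0.66. Chac2, an enzyme of glutathione breakdown, differed by 0.54, Cyp2c11, a liver cytochrome P450, by 0.48, Gzmm, a granzyme of cytotoxic lymphocytes, by 0.45 and the peptide hormone gene Adm2 by 0.41. Cyp2c11 passed the filter on dim probes only through LPS-G0 and LPS-G2, the groups where it was highest. A higher value with LPS was thus favoured by the filter itself, and it came down to 0.13 under another setting. The remaining ones were Glod5 at 0.38, Cluh, which binds messenger RNAs of mitochondrial proteins, at 0.37, and Isca1 at 0.28. All were higher on each of the 3 diets.

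Isca1, which assembles iron-sulfur clusters in mitochondria, differed little but with a narrow spread. Its log2 ratios were -0.70, -0.16 and 0.05 at the lowest, median and highest without LPS and -0.09, 0.10 and 0.29 with LPS. A second Isca1 probe, also above background on every array, differed by only 0.07, so the 2 probes did not give the same size.

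Among the genes lower with LPS, Rhob, a small GTPase of endosomes, differed by -0.79, Btbd1 by -0.79 and Icos, a co-stimulatory receptor of activated T cells, by -0.64. Rhob and Btbd1 were above background on 3 and 4 of 12 LPS arrays, against 9 and 8 of 12 without LPS. Icos had log2 ratios of -0.62, 0.04 and 0.84 at the lowest, median and highest without LPS and -1.15, -0.40 and 0.10 with LPS, so the arms overlapped between -0.62 and 0.10. It was above background on 1, 2 and 1 of 4 arrays in LPS-G0, LPS-G1 and LPS-G2. Icos and Rhob passed the filter on dim probes only through C-G1, so a lower value with LPS was favoured by the filter itself. Under another setting, the difference came down to -0.21 for Icos and to -0.24 for Rhob. Cntnap2, an adhesion protein of the neurexin family, differed by -0.60, the sodium chloride cotransporter Slc12a3 by -0.54 and the sugar mutarotase Galm by -0.43. Slc12a3 passed the filter on dim probes only through C-G1, the group where it was highest, so its lower value with LPS was also favoured by the filter. Under another setting, the difference came down to -0.18 for Slc12a3 and to -0.12 for Galm. The retinoic acid receptor Rara differed by -0.44, the iron-sensing F-box protein Fbxl5 by -0.39, the AP-1 subunit Jund by -0.33 and the glycosyltransferase B3gnt2 by -0.33. Wdr1, which promotes actin filament turnover, differed by -0.23. Slc35e1 differed by -0.32 at its brightest probe and by 0.31 at another, so its probes disagreed in sign.

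**Figure D2:**
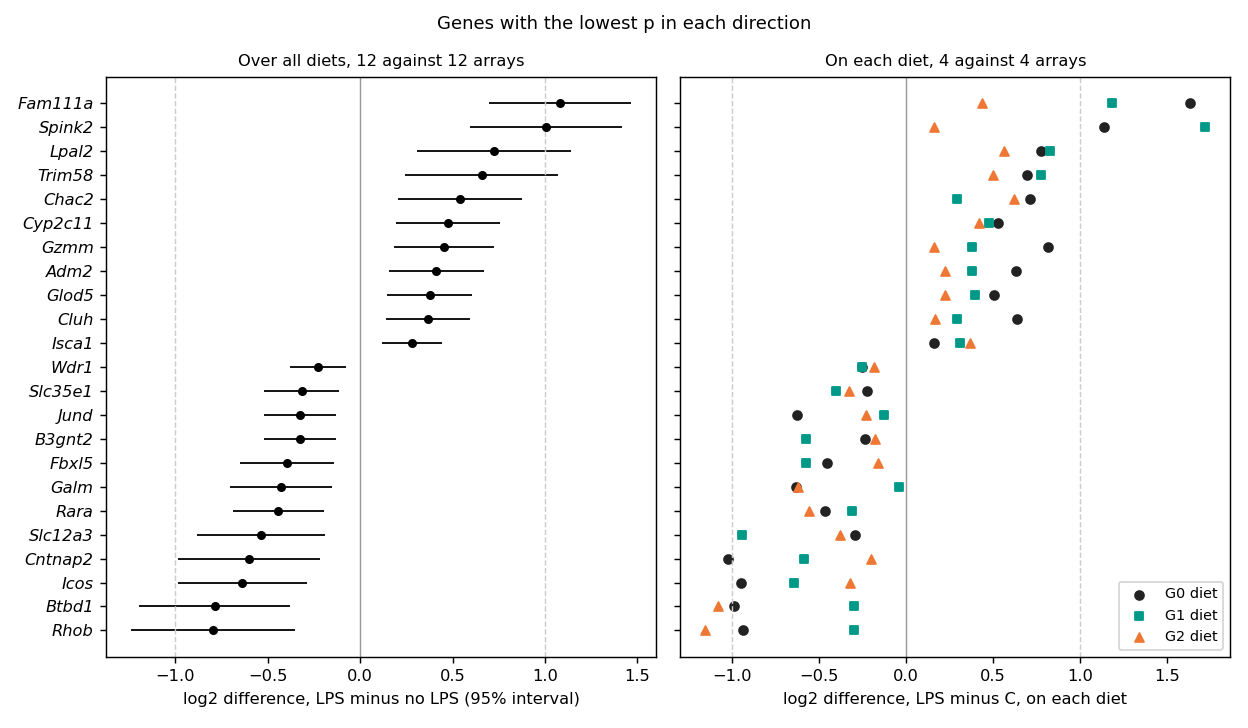
LPS difference (log2, x axis) with its 95% interval for the genes named by their small p, and, in the right panel, the difference on each diet. Fam111a and Spink2 lie farthest to the right near 1 and the other genes within 0.8 of 0; within-diet marks of Btbd1 on G0 and G2 and of Rhob on G2 rest on LPS arrays not well above background.

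The pathway that reads LPS showed no member past the adjusted threshold, and much of it was too dim to test. Of 15 genes for LPS recognition and its adaptors 5 were tested, 0 had an unadjusted p under 0.05 in either direction, and their median difference was 0.01, the same as over all probes tested. Tlr4, Cd14, Ly96 and Lbp were not tested, because no group read them above background on all of its arrays. The adaptor Myd88 differed by -0.19, the receptor Tlr2 by -0.04, the kinases Irak1 and Irak3 by 0.17 and 0.01 and the ubiquitin ligase Traf6 by 0.19. Of 15 NF-kB subunits and inhibitors 9 were tested and 0 had an unadjusted p under 0.05, with a median of 0.06. Of all probes, 7.86% were higher and 2.15% lower at that p. For lists of 5 and 9 tested genes, a count of 0 is near those shares. The subunit Nfkb1 differed by -0.18 and the inhibitors Nfkbia and Nfkbib by -0.08 and 0.26.

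Cytokine genes likewise differed little. Of 28 cytokines and receptors, 19 were tested, with a median of -0.09. At an unadjusted p under 0.05, 0 were higher and 1 was lower, where 7.86% and 2.15% of all probes were. The pyrogenic cytokine Il1b differed by -0.02 (95% interval -0.44 to 0.39) and Tnf by -0.01 (-0.45 to 0.44). These intervals exclude a 2-fold difference in either direction. Il6, Il10, Il1a and Ifng were not tested. The interferon gamma receptor subunit Ifngr2 differed by -0.19 and the interleukin-1 receptor antagonist Il1rn by -0.20. Of 23 chemokines and receptors 13 were tested, with 1 higher and 0 lower, beside the same shares of all probes, and a median of -0.03. The higher gene was Ccl5 at 0.37, a chemokine also made by cytotoxic lymphocytes, while Ccl3 differed by 0.00 and the neutrophil receptor Cxcr2 by -0.24.

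Interferon-stimulated genes were mostly lower with LPS. Of 26 tested out of 33 listed, 22 had a lower and 4 a higher mean, the median was -0.17, and at an unadjusted p under 0.05 there were 4 lower and 0 higher, where 2.15% and 7.86% of all probes were. Those 4 were the antiviral proteins Ifit2 at -0.52, Ifit3 at -0.45 and Mx1 at -0.31, and the ubiquitin ligase Trim25 at -0.36. Their smallest adjusted p was 0.486. Summarised as the mean over the 26 genes, arrays without LPS ran from -0.65 to 0.59 and arrays with LPS from -0.42 to 0.14, with C-G0 replicate 1 lowest and C-G2 replicate 1 highest. Without C-G0 replicate 1 the median was -0.23 and 9 genes were lower at an unadjusted p under 0.05. Leaving out that array also raised the lower probes among all 10708 from 230 to 625. With each of the 24 arrays left out in turn, C-G2 replicate 1 among them, the list median ran from -0.23 to -0.145.

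On the G1 diet, 21 of the 26 interferon-stimulated genes had a lower mean with LPS. Without overlap between the groups 8 were lower, where 1.4% of all probes were, and 4 had an unadjusted p under 0.05, where 0.822% did. Medians were -0.04, -0.28 and -0.19 on G0, G1 and G2. For Ifit3 on G1, log2 ratios were 0.51, -0.17, 0.64 and 1.05 in C-G1 and 0.09, -0.68, -0.82 and -0.43 in LPS-G1, and the groups overlapped.

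Genes of cytotoxic T and natural killer cells had a median above that of all probes. Of 30 listed, 20 were tested, 15 had a higher mean, against 53.0% of all probes, and the median was 0.22. At an unadjusted p under 0.05 there were 5 higher and 1 lower, where 7.86% and 2.15% of all probes were. The 5 were the granzymes Gzmk at 0.50 and Gzmm at 0.45, the granule membrane protein Nkg7 at 0.43, Ccl5 at 0.37 and the lectin-like receptor Klre1 at 0.57, while the co-receptor chain Cd8b was lower at -0.28. The other granzymes were Gzma at 0.45, Gzmc at 0.43 and Gzmb at 0.35, and perforin, Prf1, stood at 0.19. The list was chosen knowing that the study discusses granzymes in these rats, so its direction is not independent evidence.

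Most of the higher cytotoxic members were those on the control diet, although no probe passed the adjusted test for a difference between diets. For Gzmk, C-G0 arrays had log2 ratios of -1.31, -0.10, -0.32 and -0.39 and LPS-G0 arrays 0.85, 0.69, 0.20 and 0.54, which did not overlap. On G2 they were 0.06, -0.01, -0.27 and 0.32 in C-G2 and 0.14, 0.11, 0.27 and -0.33 in LPS-G2, so the groups lay within each other's range. Over the 20 tested genes the medians were 0.62, 0.11 and -0.01 on G0, G1 and G2. At an unadjusted p under 0.05, 12, 1 and 0 of the 20 were higher on G0, G1 and G2, against 6.81%, 1.99% and 0.588% of all probes. Without overlap 7, 0 and 0 were higher, against 3.69%, 1.33% and 0.57% of all probes. As the mean over the 20 genes, C-G0 arrays stood at -0.86, 0.10, -0.26 and -0.24 and LPS-G0 arrays at 0.38, 0.30, 0.05 and 0.25, so C-G0 replicate 1 lay well below the other arrays. The G0 median and counts above include that array. Without that array the median over 3 diets was 0.16, with 6 higher and 1 lower, where 1258 and 625 of all 10708 probes were.

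General T cell genes had a median below 0. Of 23 listed, 18 were tested, with a median of -0.16. At an unadjusted p under 0.05 there were 1 higher and 2 lower, where 7.86% and 2.15% of all probes were. The lower ones were Icos, dim in most rats with LPS, and the transcription factor Tcf7 at -0.46, and the higher one was the kinase Lck at 0.25. The receptor chain Cd3e stood at -0.23. Of 25 B cell genes 16 were tested and 0 had an unadjusted p under 0.05, with a median of -0.10. Among them, the transcription factor Pax5 stood at 0.25 and the adaptor Blnk at -0.27. Blnk passed the filter on dim probes only through C-G1, which favoured a lower value with LPS. Of 12 genes of MHC class II antigen presentation 9 were tested, 0 had an unadjusted p under 0.05 and the median was 0.00, with RT1-Bb at 0.10 and the invariant chain Cd74 at -0.19.

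Myeloid markers gave no member with an unadjusted p under 0.05, where 7.86% of all probes were higher and 2.15% lower. Among so few genes, a count of 0 is near those shares. Of 24 neutrophil genes 9 were tested, with a median of -0.16, and S100a9 and S100a8, subunits of calprotectin, stood at -0.34 and -0.21. The granule genes Lcn2, Mpo, Elane, Mmp8, Mmp9 and Ltf were not tested. On the control diet the neutrophil median was -0.53. As the mean over the 9 genes, arrays ran from -0.63 to 0.72 without and from -0.72 to 0.51 with LPS. Of 24 monocyte genes 17 were tested, with a median of 0.02, the receptor Csf1r at 0.12 and the lysozyme gene Lyz2, which neutrophils also express, at -0.21. The monocyte means ran from -0.63 to 0.26 without and from -0.27 to 0.21 with LPS.

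Erythroid genes were nearly all slightly higher with LPS. Of 36 listed, 30 were tested and 29 had a higher mean, against 53.0% of all probes, and the median was 0.22. At an unadjusted p under 0.05 there were 3 higher and 0 lower, close to the 7.86% and 2.15% of all probes. The 3 were Trim58 at 0.66, the cholesterol transporter Tspo2 of red cell precursors at 0.40 and the globin gene Hbb-b1 at 0.21, whose probe may also read near-identical globin copies. As the mean over the 30 genes, arrays ran from -1.50 to 0.46 without LPS and from -0.69 to 0.27 with LPS, and the lowest, C-G1 replicate 2, stood apart from the rest of its group at -0.25, -0.60 and -0.23. Without that array the median was 0.14, 26 genes had a higher mean and 1 had an unadjusted p under 0.05, where 6.37% of all probes did. Without C-G0 replicate 1, the highest array, 6 had an unadjusted p under 0.05, where 17.6% of all probes did. The medians were 0.08, 0.41 and 0.16 on G0, G1 and G2. Of 21 platelet genes 16 were tested and 0 had an unadjusted p under 0.05, with a median of 0.02, Gp5 at 0.17 and P-selectin, Selp, at -0.69.

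**Figure D3:**
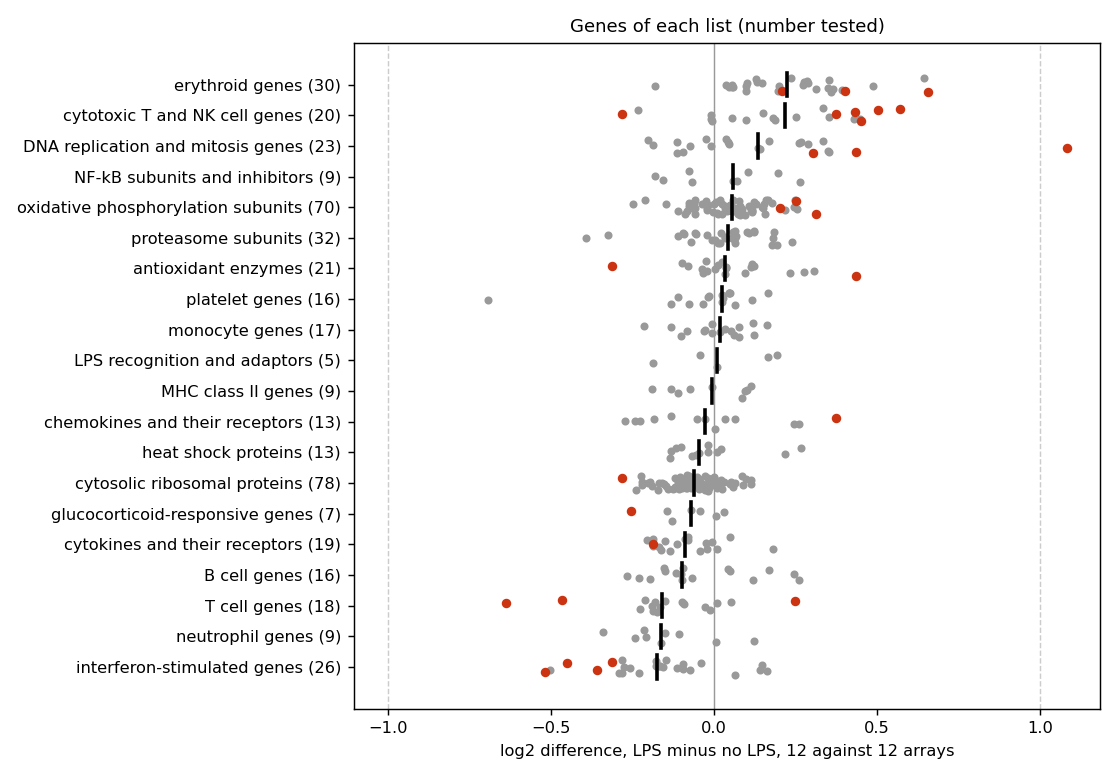
LPS difference (log2, x axis) of every tested member of the 20 gene lists, 1 point per gene, with the median of each list as a bar; red points have an unadjusted p under 0.05. The cytotoxic and erythroid lists have medians of 0.22, interferon-stimulated genes of -0.17, and the other lists lie between them.

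Genes of DNA replication and mitosis, of which 23 of 52 were tested, had a median of 0.14, with 3 higher and 0 lower at an unadjusted p under 0.05, where 7.86% and 2.15% of all probes were. The 3 were Fam111a, the mitotic kinase Cdk1 at 0.30 and the proliferation marker Mki67 at 0.44. Cdk1 passed the filter on dim probes only through LPS-G0 and LPS-G2, so its higher value with LPS was favoured by the filter. Under another setting Cdk1 came down to 0.13. Fam111a is in that list because of its known role. The list was drawn up with earlier results of these data known, so counting Fam111a there is no further evidence. The replication clamp Pcna, with which Fam111a associates, stood at -0.07. The median was 0.06 with normexp and loess, 0.07 with Cy3 alone, and -0.05 over the 12 members above background on all 24 arrays, so its sign depended on the dim members. Without C-G1 replicate 2 only 1 gene had an unadjusted p under 0.05, where 6.37% of all probes did.

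Stress and housekeeping groups lay close to 0. Their members are counted at an unadjusted p under 0.05, where 7.86% of all probes were higher and 2.15% lower. Of 30 antioxidant enzymes 21 were tested, with 1 higher, the quinone reductase Nqo1 at 0.44, 1 lower, the mitochondrial superoxide dismutase Sod2 at -0.31, and a median of 0.03. Of 14 glucocorticoid-responsive genes 7 were tested, with 0 higher, 1 lower, the transcription factor Cebpd at -0.25, and a median of -0.07, where Tsc22d3 stood at -0.13. Of 20 heat shock proteins 13 were tested, with 0 in either direction, a median of -0.05, Dnajb1 at -0.13 and Hspa9 at 0.22. All 32 proteasome subunits were tested, with 0 in either direction, a median of 0.04, Psmc4 at 0.18 and Psmd8 at 0.24.

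Translation and respiration genes were measured nearly in full. Of 79 cytosolic ribosomal proteins 78 were tested, 60 had a lower mean, and the median was -0.06, with 0 higher and 1 lower at an unadjusted p under 0.05, Rps28 at -0.28, and Rpl6 at -0.22. Of 72 oxidative phosphorylation subunits 70 were tested, 50 had a higher mean, and the median was 0.06, with 3 higher and 0 lower. The 3 were the complex III subunit Uqcrh at 0.25, the ATP synthase subunit Atp5pd at 0.20 and the complex I subunit Ndufa11 at 0.31. Over all probes tested, 53.0% had a higher mean, and 7.86% were higher and 2.15% lower at an unadjusted p under 0.05. For every one of the 78 and the 70 genes, the 95% interval lay within 2-fold.

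**Figure D4:**
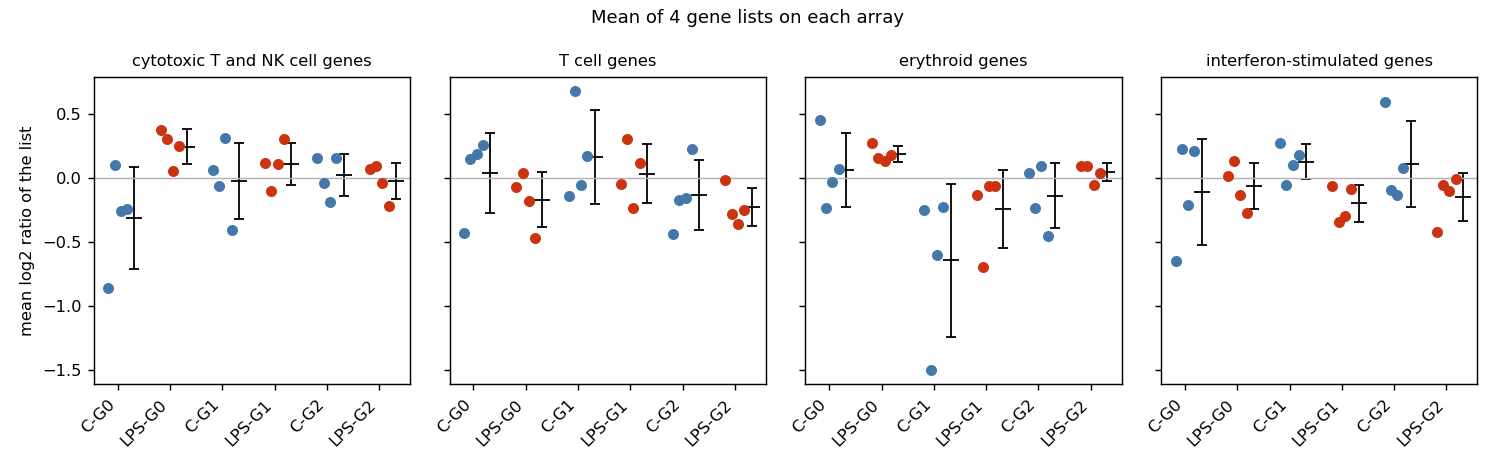
Mean log2 ratio over the tested members of 4 gene lists (y axis), 1 point per array in the 6 groups along the x axis, with bars for the group mean and SD (n = 4). C-G0 replicate 1 is the lowest array for cytotoxic and interferon-stimulated genes and C-G1 replicate 2 for erythroid genes, and 3 of the 4 LPS-G0 points of the cytotoxic list lie above every C-G0 point.

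The effect of LPS was not shown to differ between diets. Of the 10708 probes, 0 passed the adjusted threshold of the LPS by diet interaction (0%, smallest adjusted p 0.978, limma), and 322 had an unadjusted p under 0.05. Within diets, 1211 probes on G0, 301 on G1 and 117 on G2 had an unadjusted p under 0.05. Each diet had its own C group, and the LPS differences of all probes correlated across probes at r = 0.306 between G0 and G1, -0.03 between G0 and G2 and 0.235 between G1 and G2, as a description over probes that are not independent.

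The genes with the smallest interaction p were Serp2, Thumpd2 and Slc16a1, each with an adjusted p of 0.978. Serp2, a stress-associated protein of the endoplasmic reticulum, differed by 1.81, -1.48 and 0.74 on G0, G1 and G2 (SE 0.478, interaction p 0.000245 by limma). Its log2 ratios on G1 were -0.30, -1.35, -0.58 and 0.61 in C-G1 and -2.07, -0.58, -2.66 and -2.22 in LPS-G1, and on G0 0.21, -0.64, -1.13 and -1.94 in C-G0 and 0.95, 0.29, 1.32 and 1.17 in LPS-G0. The groups did not overlap on G0 and did on G1. Slc16a1, a transporter of lactate and other monocarboxylates, differed by -1.30, 0.95 and 0.79 (SE 0.370, interaction p 0.000355 by limma). It stood at 1.27, 0.38, 0.67 and 0.42 in C-G0 and -0.13, -1.17, 0.11 and -1.27 in LPS-G0, and at -0.14, -0.88, -0.64 and -0.73 in C-G1 and 0.34, 0.27, 0.11 and 0.69 in LPS-G1, so the groups were separated in opposite directions on these diets. Slc16a1 passed the filter on dim probes only through C-G0 and LPS-G1, the groups where it was highest, so these differences were favoured by the filter itself. It was above background on 2 of 4 arrays in C-G1 and on 1 of 4 in C-G2 and in LPS-G2. Thumpd2 was above background on 0 of 4 arrays in LPS-G0 and in C-G2, and no fold is given for those diets.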

How the data were processed

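Whole-blood RNA of 24 rats was measured on 2-colour Agilent rat arrays of 62976 spots against a common reference. According to the deposited files, the authors extracted signals with Agilent Feature Extraction (version 10.10.1.1 in the file headers, 10.7.3.1 in the labels), with background subtraction and Lowess dye balance. Deposited were, per the file headers, the log10 ratio of Cy5 over Cy3, the processed signal intensity of each channel and other flags for outlier, saturated and above-background spots. The series value table of the authors held the same log10 ratios in all 1511424 values. Its scale and direction were thereby known.

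From these, log2 of Cy3 over Cy5 was computed, outlier spots (679 to 1133 per array) were left out and spots of a probe were averaged, which gave 30367 probes. A probe was tested where 1 or more of the 6 groups read it above background (a fraction of at least 0.5 of its spots) on each of its 4 arrays. limma 3.58.1 in R 4.3.3 fitted diet and LPS, and for single diets and the interaction, the 6 groups. P-values were adjusted by Benjamini-Hochberg over 10708 probes. Exact permutations exchanged LPS labels within diets. The scripts were tested on simulated data. Gene symbols come from the array files, updated through RefSeq, where 8046 of the tested probes matched. For a gene with several probes, the probe with the brightest Cy3 signal stands.

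Named were the 12 genes per direction with the smallest p (placeholder symbols excluded), the 2 with the smallest p of each of 20 lists, 3 of the interaction, and 6 discussed in the study. Of the genes this rule gave, 1 is not reported here. Other list members were named after their values were seen. The members and lists were chosen with earlier results of these data known. Replicates are separate rats. The number of arrays limits the precision. Alternatives were other background, scaling, filter, model and block settings, single slides and diets, and leaving out each array or the 2 with conflicting labels.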

Additional observations from a re-analysis of the deposited data

Results flagged for a closer look

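In 66 groups of 4 arrays, 3 had 1 array far from the other three by Dixon's criterion, where chance gives about 1 in 20 groups. These were Gzmk in LPS-G1 replicate 2, at -0.24 against 0.44, 0.44 and 0.52, Gzma in C-G2 replicate 3, at -0.82 against 0.28, 0.28 and 0.42, and the dimmer Fam111a probe in LPS-G1 replicate 4, at -1.09 against 1.14, 1.11 and 1.05. Without LPS-G1 replicate 4 the difference of that Fam111a probe over all diets was 1.72, with an adjusted p of 0.0170 by limma. That array was singled out from the values of this same probe, so the smaller p is no further evidence. The limma adjusted p was 0.130 with all arrays and 0.650 without the 2 arrays of conflicting labels.

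In 2 genes every LPS array lay below every C array on one diet and above on another. Thumpd2 had an interaction p of 0.000298 and Slc16a1 of 0.000355, and neither passed after adjustment over all probes (limma adjusted p 0.978). For Thumpd2 the C-G0 ratios were 0.52, 0.96, 0.88 and 0.01 and the LPS-G0 ratios -0.67, -0.36, -0.43 and -1.16, while C-G2 stood at -1.99, -1.33, -0.89 and -0.69 and LPS-G2 at -0.43, -0.32, -0.42 and 0.02. The lower group in each of these pairs was not well above background on any array. Slc16a1 passed the filter on dim probes only through C-G0 and LPS-G1, the groups where it was highest.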

How the results depend on the processing

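The count of 0 probes at an adjusted p under 0.05 held under most settings and was 1 with an intensity trend (Fam111a, adjusted p 0.0425) and 1 with array weights (0.0399), each also at 2-fold or more; leaving out single arrays gave 0 to 2. Unadjusted counts, 1072 as reported, were 1867 with no filter, 385 with Cy3 alone, 238 within slide 1, 411 within slide 3, 400 within the G1 diet, 159 within the G2 diet, 749 without the conflicting labels and 678 to 1883 when single arrays were left out (678 without C-G2 replicate 2, 680 without C-G0 replicate 2, 682 without C-G1 replicate 2, 1613 without C-G2 replicate 1, 1883 without C-G0 replicate 1). Within G0 the adjusted count was 0 to 2 on leaving out arrays (2 without C-G1 replicate 2), and within G1, 1 as reported, it was 0 with the slide block, 0 with the replicate block, 0 with no filter and 0 to 1 on leaving out arrays. With the replicate block of 12 pairs the unadjusted count was 1462. Same-numbered arrays of a diet share a slide. Their deviations correlated at a mean r of 0.164 (-0.07 to 0.347), against -0.05 for different numbers. Deviations cancel out within a group, so the value for different numbers largely follows from the other and is no separate baseline. Of 12 C arrays, 7 correlated best with the LPS array of their own number, a hint of shared variation. Since no label ties the numbers and only 8 of 12 pairs were over 0.1, the numbers were not treated as pairs.

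List medians moved by more than the spread between arrays for LPS recognition within G1 (-0.17) and G2 (0.16), neutrophil (-0.53), cytotoxic (0.62) and glucocorticoid-responsive genes (-0.25) within G0, NF-kB (-0.098), cytokine (-0.27) and antioxidant genes (0.18) within slide 2, and cytotoxic (0.49), T cell (0.18), platelet (-0.27) and heat shock genes (0.11) within slide 1. Differences turned sign within slide 1 for Tsc22d3 (0.17), Blnk (0.047), S100a9 (0.078), Il1rn (0.090), Nfkb1 (0.047), Cd74 (0.012), Slc16a1 (-0.41), Tcf7 (0.11) and Rpl6 (0.023), within slide 2 for Gzma (-0.086), Gzmb (-0.064) and Selp (0.67), and within slide 3 for Thumpd2 (0.043) and Traf6 (-0.038). They turned on G0 for Traf6 (-0.024), RT1-Bb (-0.031) and Slc16a1 (-1.30), on G1 for Tsc22d3 (0.032) and Serp2 (-1.48), and on G2 for Thumpd2 (0.94), Nfkbib (-0.088), Cd74 (0.060), Cxcr2 (0.078), Gzmc (-0.42), Gzmb (-0.43), Gp5 (-0.053) and Myd88 (0.022). Serp2 also turned with array weights (-0.041) and Thumpd2 without the arrays of conflicting labels (0.044). The causes were not tested. Genes not above background on every array have no value under the filter that asks for all 24, and dim signal limits Fam111a and Spink2 most.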

Other observations

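Within-group spread was larger without LPS than with it. The median SD of the log2 ratio over all tested probes was 0.377 in C-G0, 0.285 in C-G1 and 0.308 in C-G2, and the groups LPS-G0, LPS-G1 and LPS-G2 had median SDs of 0.233, 0.230 and 0.224. The SD was larger without LPS for 75.8%, 64.8% and 66.0% of probes on G0, G1 and G2. C-G0 replicate 1 and C-G1 replicate 2 had the lowest array quality weights, 0.182 and 0.225. These are descriptions of 4 arrays per group and were not tested.

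Probes whose groups did not overlap in the same direction on 2 of the diets numbered 22 higher and 4 lower with LPS, and 0 did so on all 3. Among the 22, beside Fam111a, Spink2 and Isca1, were the cap-binding subunit Ncbp2, the globin gene Hba-a1, the transcription co-activator Edf1 and the translation factor Eef1e1. The 4 lower ones were Wdr1, the inhibitory G protein subunit Gnai2, the vesicle traffic GTPase Rab1b and the unnamed probe A_64_P085918. These genes were chosen after their values were seen.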
